A study of Mus musculus with 12 samples.

Results

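TSEC, a line derived from mouse liver sinusoidal endothelium and immortalized, were cultured with free fatty acids (FFA) together with INT-767, and their RNA was compared with that of cells kept in medium alone. INT-767 is a bile acid derivative that activates 2 bile acid receptors, the nuclear receptor FXR and the surface receptor TGR5. The 3 arrays with the treatment label FFA+767 (FFA+INT-767 below) were set against the 3 labelled Media and paired by the biological replicate number in their titles, which took 6 of the 12 arrays of the study. By the sample labels, FFA+INT-767 cells received 0.66 mM oleic acid, 0.33 mM palmitic acid and 30 µM INT-767 for 8 h, and Media cells received none of these. The study's methods give a lower dose of oleic acid and a longer exposure, and which of the sources applies is not known. The labels name no vehicle for the Media arrays. All cells were of 1 established line. The labels call the arrays biological replicates and the study calls them triplicate wells, so the p-values cover no more than the variation among these arrays, and that may be technical. The comparison was described across 25268 of the 26076 transcripts of the table, those with a log2 expression value over 4.5 in at least 1 of the 6 arrays, and across the 13185 genes among them that carry a single symbol.

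Long-chain fatty acids bind the nuclear receptors of the PPAR family, which in liver, muscle and fat drive genes of fatty acid oxidation and lipid storage. FXR, activated by bile acids, restrains bile acid synthesis and inflammatory genes in the liver, and TGR5 raises cAMP in sinusoidal endothelial cells and macrophages. Cholesterol synthesis is set by the SREBP factors, which are processed when sterols in the endoplasmic reticulum are low, and unsaturated fatty acids also limit SREBP processing. Sinusoidal endothelial cells line the liver sinusoids and help recruit leukocytes through chemokines and adhesion molecules.

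The 12 arrays (Mouse Gene 2.0 ST) held 3 of each treatment (the combination, either agent alone and Media), with array medians of 5.76 to 5.87 on the log2 scale, and their number limits the precision. Of 20 endothelial genes 8 were measured. Among them Flt1, a VEGF receptor, had 8.08, 7.55 and 8.24 in the Media arrays, whereas Kdr, the main VEGF receptor of endothelium, had 4.91, 4.17 and 4.36. Pecam1, Cdh5 and Tek had no row with a single symbol in the table used here, and neither did the sinusoidal genes Stab2 and Lyve1. Flt1 was the only gene of this list over 7 in any Media array. Of 10 cholangiocyte and epithelial genes 6 were measured, and 5 were over 7 in a Media array. Epithelial keratins were high, with 11.02, 11.70 and 11.12 for Krt8 in Media. Epcam was low, with 4.45, 4.86 and 4.47, and Cdh1 had 5.84, 6.13 and 7.26. Of 19 sinusoidal endothelial genes 7 were measured, and Maf and Ehd3 were over 7, Ehd3 with 7.76, 7.86 and 8.51. The endothelial label could be checked against these few genes alone. Of 14 hepatocyte genes 4 were measured, and 3 were over 7 in a Media array. Ahsg had 9.93, 8.92 and 11.30 in Media, whereas Ttr was low with 3.98, 4.31 and 4.19, and Alb was not measured. The hepatocyte genes summed on the linear scale to 1063, 579 and 2910 in Media replicates 1, 2 and 3. Genes of stellate cells and fibroblasts (11 of 16 measured) summed on the linear scale to 7540, 1575 and 1916 in Media replicates 1, 2 and 3 and to 3023, 940 and 1577 in FFA+INT-767.

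A pair of arrays outside the main comparison went against their labels. Of the 17 PPAR targets that were higher in FFA+INT-767 than in Media at an unadjusted p under 0.05, all 17 had a higher value in the array labelled FFA than in the array labelled INT-767 in replicate 1 and in replicate 3, and 0 of 17 did in replicate 2. Their median difference from the Media array of the same number was 0.57, 0.02 and 0.62 in FFA replicates 1, 2 and 3. It was -0.15, 0.76 and -0.19 in the INT-767 arrays and 0.43, 0.83 and 0.67 in the FFA+INT-767 arrays. The 17 were chosen for a higher level in FFA+INT-767 than in Media, so their positive medians in the FFA+INT-767 arrays follow from the choice. The choice also favours low Media values, which enter the FFA and INT-767 medians. Of all 35 PPAR targets measured, 31, 8 and 31 were higher in FFA than in INT-767 in replicates 1, 2 and 3. Their medians were 0.363, -0.00582 and 0.441 in FFA, -0.084, 0.248 and -0.142 in INT-767 and 0.25, 0.225 and 0.323 in FFA+INT-767. Angptl4, for example, was 8.23 in the array labelled FFA replicate 2, where Media replicate 2 had 8.08, and 10.43 in the array labelled INT-767 replicate 2. Both arrays were kept in the group of their label. The comparisons below that use the FFA or INT-767 arrays are therefore given with all 3 replicates and again without replicate 2, an alternative added after the values were seen, except where a fit over the 12 arrays is named. Differences between FFA+INT-767 and Media use neither array.

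No transcript passed the test between FFA+INT-767 and Media. In a linear model with the replicate number as a block (limma), 0 of 25268 transcripts had a Benjamini-Hochberg adjusted p under 0.05 (0%), and the smallest adjusted p was 0.363. At an unadjusted p under 0.05 there were 2230 transcripts (8.83%), of which 1092 were higher in FFA+INT-767 (4.32%) and 1138 lower (4.5%), and with no block there were 1359. The 2 groups did not overlap in 2667 transcripts (10.6%). Among the 13185 genes, 227 were higher (1.72%) and 712 lower (5.4%) at an unadjusted p under 0.05, 548 were higher (4.16%) and 730 lower (5.54%) with no overlap, and the median log2 difference was -0.03. The shares of 1.72% higher and 5.4% lower are those to set beside each list count of FFA+INT-767 against Media at that p. All differences below are log2 values of FFA+INT-767 minus Media, and none of the genes named passed the adjustment. The adjusted p of the 144 genes chosen by rule was no smaller than 0.148 in any of the alternatives tried.

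Genes of fatty acid handling were among the largest differences on the higher side. Angptl4, a secreted inhibitor of lipoprotein lipase and a PPAR target, had 8.91, 8.08 and 8.26 in Media replicates 1, 2 and 3 and 10.21, 10.24 and 10.49 in FFA+INT-767. Each FFA+INT-767 array lay above every Media array, and the log2 difference of 1.90 (standard error 0.22, 3 pairs from 1.30 to 2.23) is a 3.73-fold higher level (unadjusted p = 0.000284, adjusted p = 0.363). Fabp4, a fatty acid binding protein, had 7.63, 6.42 and 6.05 in Media and 8.29, 8.59 and 8.23 in FFA+INT-767. Its groups did not overlap either, at a log2 difference of 1.67 (standard error 0.33, adjusted p = 0.442), and pair 1 had the smallest difference, with Media replicate 1 the highest of the Media arrays. Cpt1a, which carries long-chain acyl groups to carnitine for entry into mitochondria, had 10.83, 10.86 and 11.10 in Media and 11.74, 11.60 and 11.85 in FFA+INT-767. The 3 pairs of Cpt1a were close to each other at 0.91, 0.74 and 0.75, with a mean of 0.80 (standard error 0.11, unadjusted p = 0.00075, adjusted p = 0.363). Acot2, a mitochondrial acyl-CoA thioesterase, had 8.64, 8.63 and 8.88 in Media and 9.75, 9.77 and 9.55 in FFA+INT-767, a log2 difference of 0.97 (standard error 0.14). Acot2 and its near copy Acot1 (0.91) share much of their sequence, so a probe set cannot fully separate them. Plin2, a coat protein of lipid droplets, had 9.75, 9.05 and 9.29 in Media against 10.12, 10.25 and 10.04, again with no overlap and a log2 difference of 0.77 (standard error 0.19). Pdk4, a kinase that shuts pyruvate out of oxidation, was higher in each pair (0.43, 0.92 and 0.74), but its groups overlapped, since Media replicate 3 (10.60) lay above FFA+INT-767 replicate 2 (10.49). Cd36, a fatty acid transporter, was near the lower end of the scale in Media (4.32, 4.24 and 4.39) and had 5.04, 4.19 and 6.22 in FFA+INT-767, so only 2 of its 3 pairs were higher.

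**Figure D1:**
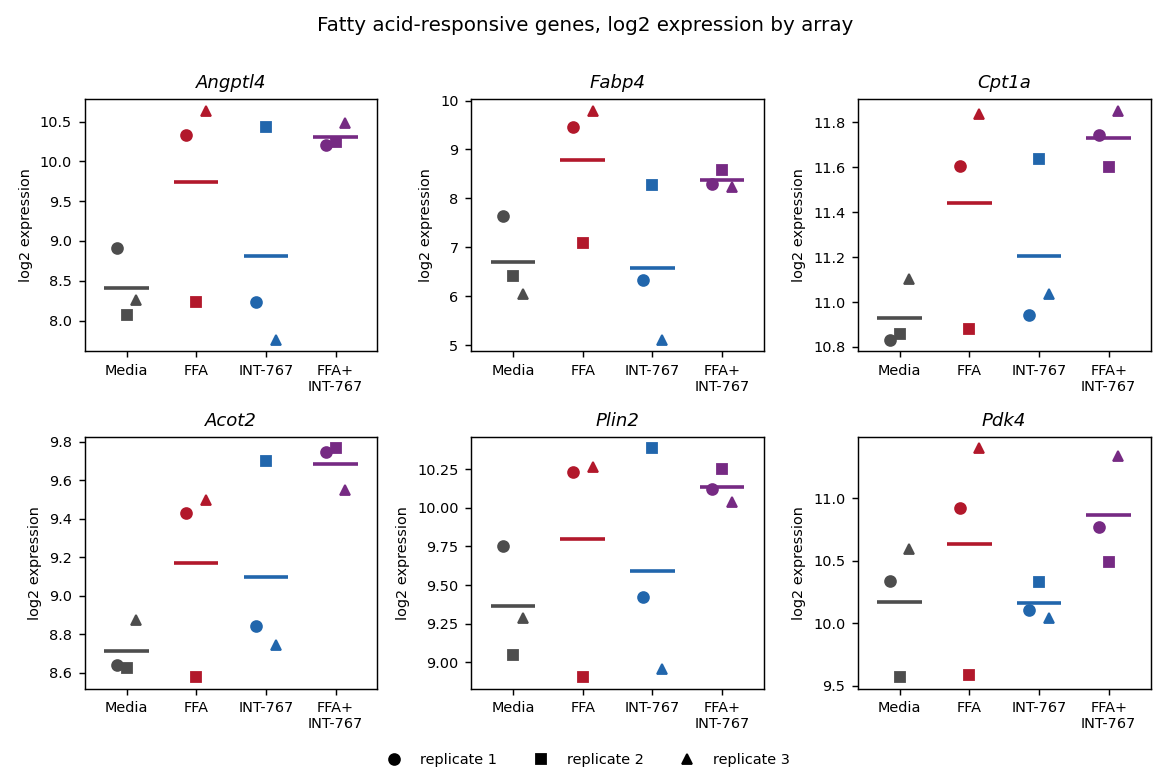
Log2 expression (y axis) of 6 genes of fatty acid handling in each array of the 4 groups, with symbols for the replicate number and a bar at the group mean. All 3 FFA+INT-767 arrays lie above all Media arrays for Angptl4, Fabp4, Cpt1a, Acot2 and Plin2, and for these 5 genes the array labelled FFA replicate 2 (square) lies no higher than the highest Media array while that labelled INT-767 replicate 2 lies above all Media arrays.

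Of 35 PPAR targets measured, 27 had a higher and 8 a lower mean in FFA+INT-767, where 43.1% and 56.9% of all genes had, with 17 higher and 1 lower at an unadjusted p under 0.05 where 1.72% and 5.4% of all genes were. With the 12 arrays in 1 fit or in the unmoderated test the first count was 9. The median log2 difference of the list was 0.32, against -0.03 over all genes, and it was 0.25, 0.22 and 0.32 in pairs 1, 2 and 3. The 1 gene lower at that threshold was Vnn1, a pantetheinase (-0.36). Among the genes of mitochondrial beta-oxidation and the carnitine shuttle, 7 of 25 were higher and 0 lower at that threshold (median 0.16), and without replicate 1 or without replicate 3 the number was 3. They included the carnitine transporter Slc22a5 (0.61, standard error 0.12), the long-chain acyl-CoA dehydrogenase Acadl (0.59, standard error 0.13) and the enoyl-CoA isomerase Eci1 (0.47, standard error 0.13), none of which overlapped between the groups. Hadha and Hadhb, the subunits of the trifunctional protein, had 0.07 and -0.16. Lipid droplet and triglyceride genes gave 5 of 19 higher and 1 lower (median 0.13). In the unmoderated test 1 was higher and 0 lower, and without replicate 3 there were 2 higher and 0 lower. The droplet protein Cidec had 0.56 and Hilpda, an inhibitor of triglyceride lipase, 0.69, whereas Lpin1, a phosphatidate phosphatase, had -0.74. Peroxisomal genes were less uniform, with 2 of 17 higher and 1 lower (median 0.04), although Pex11a, which acts in peroxisome division, had 7.04, 6.31 and 6.63 in Media and 7.52, 7.19 and 7.59 in FFA+INT-767, a log2 difference of 0.77. Of 14 genes that take up or activate fatty acids, 2 were higher, Fabp4 and the transporter Slc27a4 (0.40), and in the unmoderated test 0 were. The 70 measured nuclear genes of the respiratory chain had a median of 0.02 and the 24 of the tricarboxylic acid cycle 0.03, with 0 genes of either list past an unadjusted p of 0.05 in the blocked limma fit. In the unmoderated test 2 respiratory chain genes were higher and 1 lower and 1 gene of the cycle was higher, in the 12-array fit 3 and 1 were higher, and without replicate 2 there were 2 respiratory chain genes higher.

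**Figure D2:**
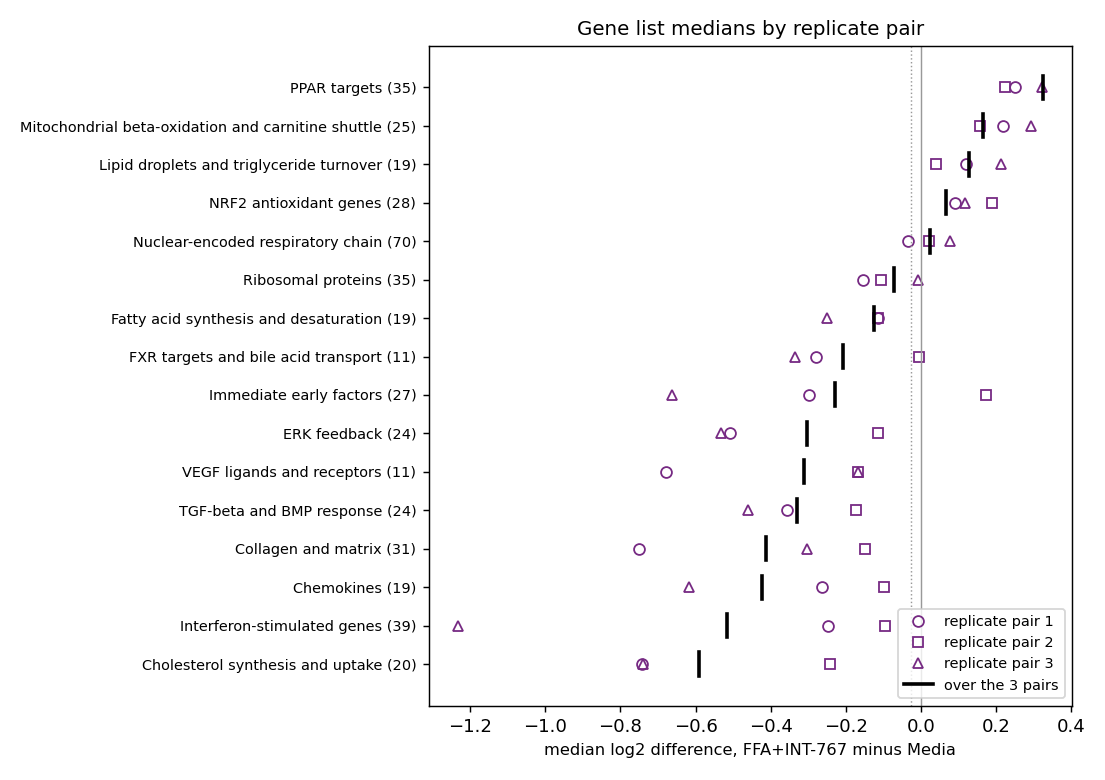
Median log2 difference (x axis, FFA+INT-767 minus Media) over the measured genes of 16 lists (y axis, number of genes in brackets) within each replicate pair (open symbols), with a bar at the median of the genes' mean differences. The dotted line marks the median over all genes, -0.03. PPAR targets lie at 0.22 to 0.32 in every pair, the cholesterol list at -0.74, -0.24 and -0.74, and the interferon-stimulated list is spread from -0.10 to -1.23.

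Cholesterol synthesis lay on the lower side throughout. The 20 cholesterol genes measured, for its synthesis or uptake, all had a lower mean in FFA+INT-767, 16 of them at an unadjusted p under 0.05 where 5.4% of all genes were lower. With no replicate block 2 reached this threshold, 4 did in the unmoderated test, and 6 did without replicate 1 or without replicate 3. The median log2 difference was -0.59, and within the pairs it was -0.74, -0.24 and -0.74. Hmgcs1, which makes the precursor of mevalonate, had 10.69, 10.07 and 11.63 in Media and 9.73, 9.44 and 10.88 in FFA+INT-767. The groups overlapped and the replicates differed more from each other than the groups did, while the 3 pairs were -0.96, -0.63 and -0.75 (mean -0.78, standard error 0.12, unadjusted p = 0.00132, adjusted p = 0.385). Mvd, mevalonate diphosphate decarboxylase, had 8.23, 7.73 and 8.75 in Media and 7.34, 7.17 and 7.67 in FFA+INT-767, with no overlap and a log2 difference of -0.84 (standard error 0.14). Pmvk, phosphomevalonate kinase, was the other member with no overlap (-0.70, standard error 0.15), where 5.54% of all genes were lower with no overlap. The sterol enzymes Cyp51 (-0.81), Lss (-0.64), Fdps (-0.60), Fdft1 (-0.59) and Sqle (-0.49) and the sterol sensor Insig1 (-0.72) were lower as well, whereas Ebp (-0.08) and Ggps1 (-0.01) were close to 0. Srebf2, the factor that drives these genes, had -0.35.

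Lipogenic genes, which make, lengthen or desaturate fatty acids, gave 6 of 19 lower and 1 higher (median -0.13), and 3 were lower with no block. Scd1, the stearoyl-CoA desaturase, had 11.63, 11.19 and 11.79 in Media and 10.71, 10.75 and 11.10 in FFA+INT-767, a log2 difference of -0.69 (standard error 0.14) with no overlap. Fasn, the fatty acid synthase, had -0.54 with no overlap and the elongase Elovl6 -0.53, while another elongase, Elovl7, was higher by 0.66 (standard error 0.12). Abca1, which exports cholesterol from cells and is a target of the oxysterol receptor LXR, had 7.27, 7.33 and 7.59 in Media and 6.64, 6.33 and 6.57 in FFA+INT-767. These groups were well apart, at a log2 difference of -0.89 (standard error 0.13, unadjusted p = 0.00106, adjusted p = 0.376). Another 3 of the 9 LXR targets were lower at an unadjusted p under 0.05, namely Scd1, the phospholipid transfer protein Pltp (-0.79) and Srebf1 (-0.32).

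Nr1h4, which encodes FXR itself, had 6.39, 5.74 and 5.58 in Media and 5.35, 5.09 and 5.10 in FFA+INT-767. Every FFA+INT-767 array lay below every Media array, with a log2 difference of -0.72 (standard error 0.15, unadjusted p = 0.00437, adjusted p = 0.442). Gpbar1, which encodes TGR5, and the classical FXR targets Nr0b2, Slc51a and Slc51b had no measured transcript with a single symbol, so 11 FXR targets and bile acid transport genes remained. Of these 3 were higher and 8 lower (median -0.21), 0 higher and 2 lower at an unadjusted p under 0.05, namely Pltp and Edn1. Without replicate 2 there were 5 lower and the median was -0.44, with no block there was 1 and in the unmoderated test 0. Members were counted without regard to whether FXR raises or lowers them, so FXR activity was not tested. Edn1, the vasoconstrictor endothelin-1, had 7.27, 4.12 and 6.02 in Media and 4.26, 4.07 and 4.34 in FFA+INT-767. Its mean of -1.58 rested on replicates 1 and 3, since Media replicate 2 was as low as the treated arrays. Of 21 cAMP and CREB targets 0 were higher and 0 lower at an unadjusted p under 0.05 in the blocked limma fit (median -0.11), and the coactivator Ppargc1a had -0.36. In the unmoderated test and in the 12-array fit 1 was higher and 1 lower. Without replicate 2 there were 5 lower (median -0.19), and without replicate 1 or without replicate 3 there was 1 higher (medians 0.00378 and 0.0169).

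Interferon-stimulated genes were lower mainly in the third pair. Of 39 measured, 37 had a lower mean in FFA+INT-767, 12 of them at an unadjusted p under 0.05. The number was 4 with no replicate block, 5 without replicate 3 and 0 in the unmoderated test. The median log2 difference was -0.52, made of -0.25, -0.10 and -1.23 in pairs 1, 2 and 3, and it was -0.18 without replicate 3. In pair 3, 37 of the 39 genes were lower, against 31 in pair 1 and 25 in pair 2. The interferon-stimulated response element, bound by a complex that holds IRF9, was searched as GAAA, any 2 bases and GAAA on both strands (overlapping matches included) from 250 bases before to 50 after the start (RefSeq promoters, GRCm38.p6). It was found at 15 of the 29 members with a promoter in that table (51.7%) and at 3.99% of all 27025 genes with one. Other elements were searched in the same way. The PPAR element was at 0 of 27 PPAR targets (0.0481% of all genes) and the sterol element at 0 of 16 cholesterol genes (0.27%). The FXR element was at 0 of 9 FXR targets (0.0111%) and the cAMP element at 1 of 15 cAMP targets (2.03%). The NF-kB element was at 5 of 16 NF-kB genes (1.89%) and the ATF4 element at 2 of 31 stress response genes (1.08%). The interferon element was also at 6 of 28 ribosomal protein genes (21.4%). A match describes the letters only, and a relation between the number of matches and the log2 difference was not tested. The 150 bases before the start are shown 5′ to 3′ on the gene's strand for 3 members, with matches on either strand in capitals, because these genes hold 1, 2 and 3 copies, which overlap in Isg15, and their log2 differences ran from -1.42 to -0.30.
Ifi205 (chr1:174031756-174031905, minus strand): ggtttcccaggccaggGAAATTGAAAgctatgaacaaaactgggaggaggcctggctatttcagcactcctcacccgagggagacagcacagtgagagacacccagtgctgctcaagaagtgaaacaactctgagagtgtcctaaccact
Ifit1 (chr19:34640739-34640888, plus strand): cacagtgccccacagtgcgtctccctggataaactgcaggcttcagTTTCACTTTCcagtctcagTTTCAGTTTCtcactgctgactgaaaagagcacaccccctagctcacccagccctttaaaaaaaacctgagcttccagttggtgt
Isg15 (chr4:156200819-156200968, minus strand): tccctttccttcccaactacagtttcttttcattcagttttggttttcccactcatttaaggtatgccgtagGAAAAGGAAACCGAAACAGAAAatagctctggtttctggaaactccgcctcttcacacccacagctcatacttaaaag

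Ifi205, a member of the interferon-inducible p200 family, had 7.41, 5.60 and 6.92 in Media and 5.52, 5.11 and 5.03 in FFA+INT-767. It was 1 of 3 members of the 39 with no overlap, where 5.54% of all genes were lower with no overlap. Its log2 difference was -1.42 (standard error 0.31, adjusted p = 0.442). Usp18, which dampens interferon receptor signalling, had 10.07, 8.92 and 10.30 in Media and 9.46, 8.24 and 8.40 in FFA+INT-767, so the groups overlapped and pair 3 (-1.91) was several times larger than pairs 1 and 2 (-0.60 and -0.68). Irf9, part of the complex that binds the element, was lower in each pair (-0.67, -0.39 and -1.07). Bst2 (tetherin, -0.95) and Ifitm3 (-0.64) followed the same order of pairs. Ifit1 had -0.84 and Isg15 -0.30, and neither reached an unadjusted p of 0.05. The 9 measured interferon-inducible GTPases, which act against intracellular pathogens, had a median of -0.48, made of -0.33, 0.12 and -1.32 in pairs 1, 2 and 3. None of them reached an unadjusted p of 0.05 in the blocked limma fit, with no block or in the unmoderated test (0 of 9). At that p 2 were lower in the 12-array fit, 1 without replicate 1 and 3 without replicate 2. Of 24 genes of class I antigen presentation 2 were lower (5.4% of all genes were), or 1 with no block, with Psmb10, an immunoproteasome subunit, at -0.54 and no overlap.

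**Figure D3:**
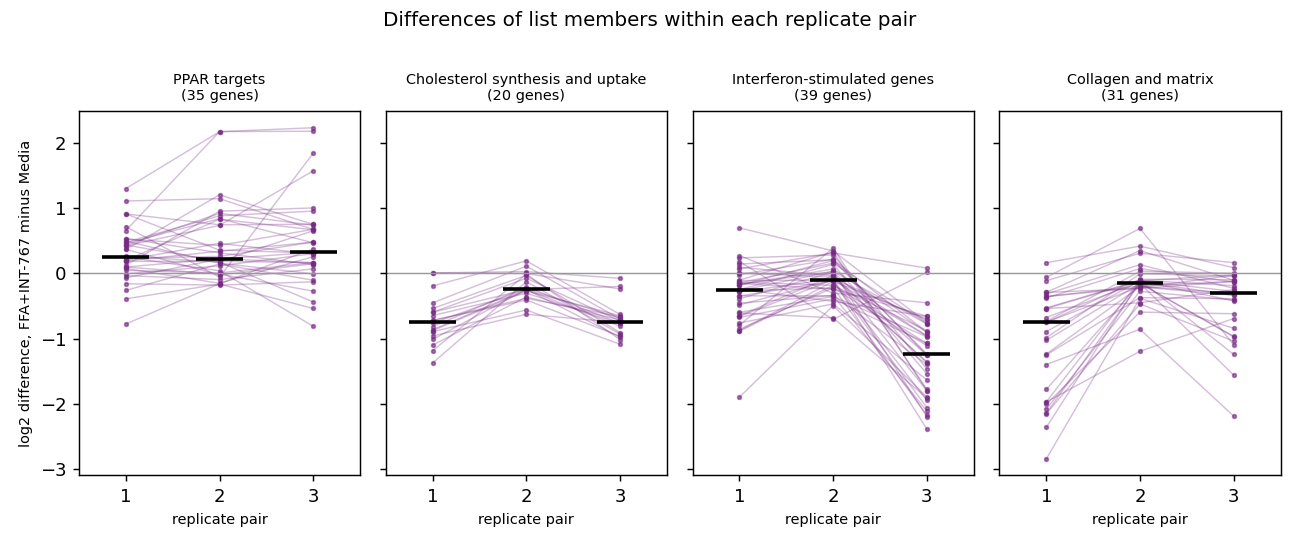
Log2 difference (y axis, FFA+INT-767 minus Media) of each measured member of 4 lists within replicate pairs 1, 2 and 3 (x axis), with a line per gene and a bar at the median of the pair. PPAR targets hold a median of 0.22 to 0.32 across pairs. The other lists are uneven, with cholesterol genes nearest to 0 in pair 2 (median -0.24), interferon-stimulated genes lowest in pair 3 (-1.23) and matrix genes lowest in pair 1 (-0.75).

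Chemokine genes were among the largest differences on the lower side. Ccl2, which recruits monocytes, had 9.19, 6.997 and 10.63 in Media and 6.41, 6.34 and 7.62 in FFA+INT-767. All 3 pairs were lower (-2.78, -0.66 and -3.01), with a mean of -2.15 (standard error 0.48, adjusted p = 0.442), but Media replicate 2 lay within the treated range. Cxcl16, which draws CXCR6-bearing T and NKT cells, had 7.25, 6.51 and 7.39 in Media and 6.30, 5.88 and 6.40 in FFA+INT-767. Its groups did not overlap and its pairs were even (-0.95, -0.63 and -0.99), at a mean of -0.86 (standard error 0.13, unadjusted p = 0.00104, adjusted p = 0.376). Ccl7, another monocyte chemokine, had 7.79, 5.62 and 7.21 in Media and 5.78, 5.66 and 5.50 in FFA+INT-767, and pair 2 differed by 0.03. Cxcl10, an interferon-inducible chemokine, had -1.33 and Cxcl13, a B cell chemokine, -1.95, with pairs of -3.36, -0.79 and -1.68. Cxcl12, the ligand of CXCR4, was lower in each pair (-2.35, -1.47 and -0.71). Of 19 chemokines measured 8 were lower and 0 higher at an unadjusted p under 0.05, and the median was -0.42. There were 3 lower with no block and 1 in the unmoderated test. Ccl20 (0.14) and Ccl25 (0.40) had a higher mean. Macrophage markers, of which 4 of 17 were measured, summed to 213 to 259 in Media and to 208 to 238 in FFA+INT-767.

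Il33, an alarmin released by damaged cells, had 8.43, 7.52 and 7.87 in Media and 6.30, 6.51 and 7.21 in FFA+INT-767, with no overlap and a log2 difference of -1.27 (standard error 0.30). Csf1, the macrophage growth factor, had -0.90 and Tgfb3 -0.78, and these were the other members lower among 12 cytokine genes. Vcam1, an adhesion molecule for leukocytes, was 9.65, 7.59 and 9.17 in Media and 7.67, 6.89 and 8.06 in FFA+INT-767, a log2 difference of -1.26 (standard error 0.26) with overlapping groups. Together with Cd34 (-1.04) and Jam2 (-0.35) it made 3 of 12 adhesion genes lower at an unadjusted p under 0.05, and 0 of 12 with no replicate block. NF-kB subunits and feedback genes were lower in mean in 18 of 19, but the only one at that threshold was Tnfaip3, which encodes the inhibitor A20 (-0.93). There were 0 with no block, and 5 lower both in the 12-array fit and without replicate 2, where the median was -0.24 against -0.13.

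**Figure D4:**
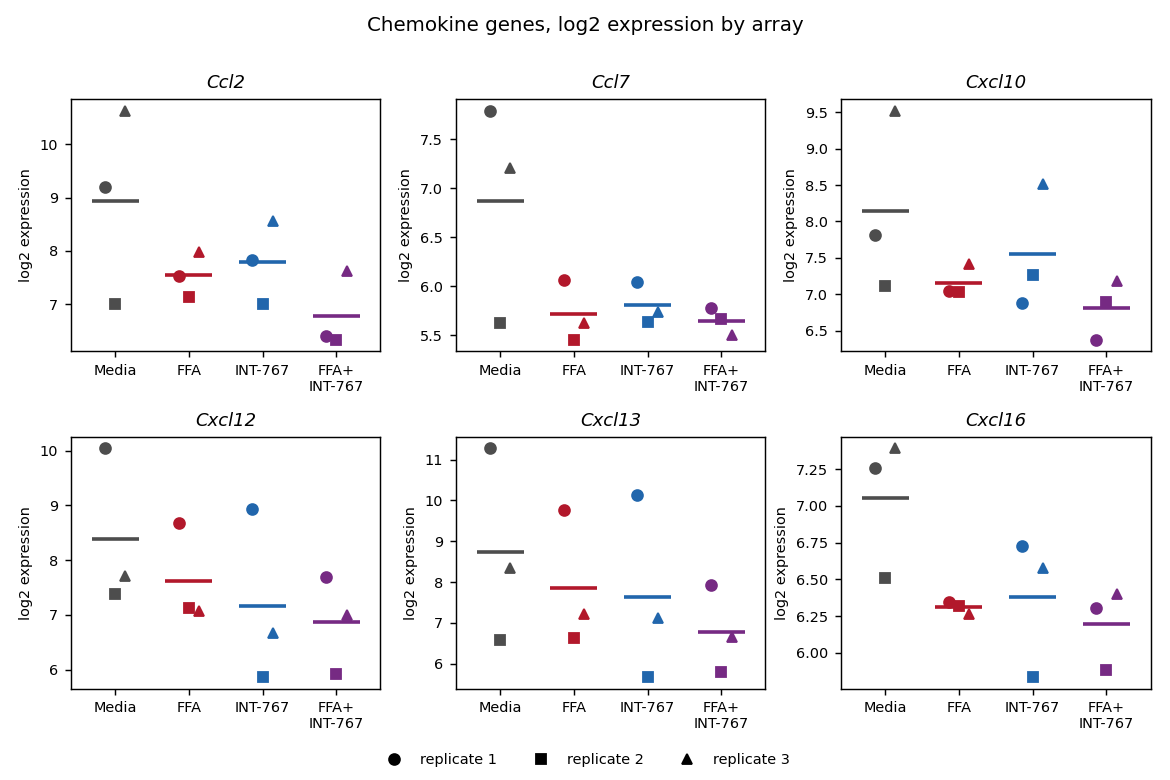
Log2 expression (y axis) of 6 chemokine genes in each array of the 4 groups, with symbols for the replicate number and a bar at the group mean. Only Cxcl16 has all FFA+INT-767 arrays below all Media arrays, and Media replicate 2 (square) is the lowest Media array for each of the 6 genes.

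Feedback genes of the ERK pathway were lower in part. Spry1, an inhibitor of receptor tyrosine kinase signalling, had 8.15, 6.53 and 7.11 in Media and 6.26, 5.59 and 5.32 in FFA+INT-767. Every FFA+INT-767 array lay below every Media array, at a log2 difference of -1.54 (standard error 0.22, unadjusted p = 0.000773, adjusted p = 0.363). Dusp4, a phosphatase that inactivates ERK in the nucleus, had 9.97, 8.85 and 9.81 in Media and 8.10, 8.35 and 8.31 in FFA+INT-767, also without overlap, and its pairs were -1.87, -0.50 and -1.50. Myc had -0.97 and no overlap, and the cell cycle gene Ccnd1, a target of the pathway, -0.80. Of 24 feedback genes measured 8 were lower and 1 higher (median -0.30). Without replicate 1 there were 2 lower, and in the unmoderated test there was 1. The gene on the higher side was Egr1, an immediate early factor (0.30). The 27 immediate early factors had a median of -0.23, but 0.17 in pair 2, with Jun at -0.83 and Klf6 at -0.74. Their count of 4 lower was 13 without replicate 2 and 0 without replicate 1 or without replicate 3.

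The largest difference among genes with no overlap was in Grem1, a secreted antagonist of bone morphogenetic proteins. It had 8.61, 9.27 and 8.43 in Media and 5.76, 7.90 and 5.75 in FFA+INT-767, a log2 difference of -2.30 (standard error 0.31, unadjusted p = 0.000648, adjusted p = 0.363), or 4.93-fold lower. Replicate 2 was the highest array in both groups, and its pair of -1.37 was the smallest. Ccn4, a matricellular protein of the WNT pathway, had 9.97, 8.72 and 9.86 in Media and 7.41, 7.55 and 8.30 in FFA+INT-767, with no overlap and a log2 difference of -1.76 (standard error 0.28). Pdgfrb, the receptor that marks mesenchymal cells, had 9.06, 6.65 and 6.97 in Media and 6.56, 5.55 and 5.35 in FFA+INT-767, a log2 difference of -1.74 (standard error 0.28). Media replicate 1 stood well above the other Media arrays, and the groups did not overlap. Bmp4 had -1.43 (standard error 0.26) with pairs of -1.84, -0.66 and -1.79, and the cyclin kinase inhibitor Cdkn2b, a gene induced by TGF-beta, -0.74 with no overlap. Of 24 genes of the TGF-beta and BMP response 8 were lower and 0 higher at an unadjusted p under 0.05 (median -0.33). Without replicate 1 there were 3 lower, and in the unmoderated test 2 were lower and 1 higher.

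Matrix genes were lower with an uneven size. Of 31 genes of collagen and matrix, 29 had a lower mean, 13 of them at an unadjusted p under 0.05. The number was 2 with no replicate block or in the unmoderated test, 5 without replicate 1 and 6 without replicate 3. The median log2 difference was -0.41, with -0.75, -0.15 and -0.30 in pairs 1, 2 and 3. Mmp13, a collagenase, had 6.46, 6.47 and 8.43 in Media and 5.07, 5.62 and 6.25 in FFA+INT-767, with no overlap and a difference of -1.48 (standard error 0.26). Mmp2, a gelatinase, had 9.50, 7.22 and 7.26 in Media and 7.53, 6.03 and 6.57 in FFA+INT-767, where replicate 1 was the highest in both groups and the groups overlapped (-1.28, standard error 0.26). Timp3, a metalloproteinase inhibitor, had -1.22, the crosslinking enzyme Lox -1.08 and tenascin Tnc -1.10, whereas the basement membrane collagens Col4a1 and Col4a2 had 0.12 and 0.22. Beside these values stand the stellate cell and fibroblast markers, of which 10 of 11 had a lower mean. Of these markers 4 were lower at an unadjusted p under 0.05 (median -0.65). The number was 1 with no block, 0 in the unmoderated test and 2 without replicate 1, where the median was -0.12. Within pairs 1, 2 and 3 their median was -1.37, -0.27 and -0.16, and their summed level, given above for each array, was below that of Media in each pair. Acta2, smooth muscle actin, had 11.52, 9.13 and 9.24 in Media and 10.15, 7.88 and 9.16 in FFA+INT-767, and Col1a1 had -0.65. The part of these markers in the matrix values was not tested, and fewer cells of a kind cannot be told apart from less RNA per cell in such bulk samples.

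**Figure D5:**
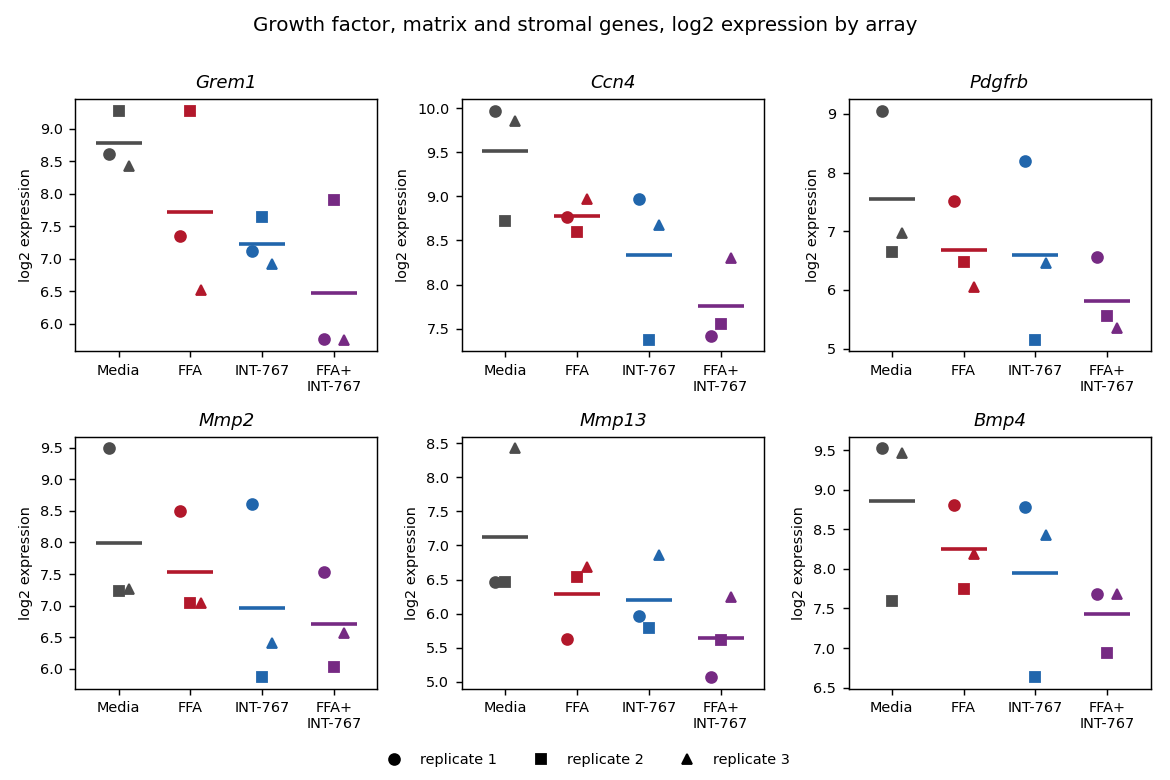
Log2 expression (y axis) of 6 growth factor, matrix and stromal genes in each array of the 4 groups, with symbols for the replicate number and a bar at the group mean. FFA+INT-767 has the lowest mean of the 4 groups for each gene, and replicate 1 (circle) is the highest Media array for Pdgfrb, Mmp2, Ccn4 and Bmp4.

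VEGF ligands and receptors lay on the lower side in 11 of 11, with 4 at an unadjusted p under 0.05 and a median of -0.31. Nrp2, a co-receptor for VEGF-C, had 8.86, 7.74 and 8.35 in Media and 7.68, 6.93 and 7.53 in FFA+INT-767, with even pairs (-1.18, -0.81 and -0.83), no overlap and a mean of -0.94 (standard error 0.13, unadjusted p = 0.000745, adjusted p = 0.363). Flt1 had -0.72 (standard error 0.15), also with no overlap. Maf, a transcription factor of sinusoidal endothelium that other cells express too, had 8.88, 7.62 and 8.47 in Media and 7.35, 6.90 and 7.37 in FFA+INT-767, a log2 difference of -1.12 (standard error 0.18) with no overlap. Of 21 vasoactive and shear-responsive genes 5 were lower at an unadjusted p under 0.05, and 0 were with no block or in the unmoderated test. They included thrombomodulin, Thbd (-0.84), an anticoagulant of the vessel wall, and Ddah2 (-0.57).

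Of 28 NRF2 antioxidant genes 5 were higher and 0 lower at an unadjusted p under 0.05 (median 0.07), where 1.72% and 5.4% of all genes were. The number higher was 8 in the 12-array fit, 2 with no block and 1 without replicate 2 or without replicate 3. Nqo1, a quinone reductase, had 8.24, 9.65 and 8.96 in Media and 8.60, 10.18 and 9.38 in FFA+INT-767, with pairs of 0.35, 0.53 and 0.42 and a mean of 0.43 (standard error 0.11). Txnrd1 (0.33) and Srxn1 (0.38) lay close to it. Cell cycle and replication genes had 1 of 58 higher and 3 lower (median -0.05), the 39 genes of the integrated stress response 1 higher and 1 lower (median -0.10), and 28 endoplasmic reticulum chaperone genes 0 higher and 1 lower, Herpud1 (-0.35). Cdkn1a, a cell cycle inhibitor, had 0.33 and the stress gene Sesn2 0.48. Ribosomal protein genes had a median of -0.07.

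Other genes with the largest differences and no overlap were of mixed kinds, by a rule that left predicted genes, small RNAs, chemosensory receptors and pseudogenes out. On the lower side Anxa8, an annexin, had 6.79, 8.33 and 7.77 in Media and 4.65, 6.68 and 6.41 in FFA+INT-767, at -1.72 (standard error 0.18). Its adjusted p in limma was 0.363. The nicotinic receptor subunit Chrna6 had -1.68, P-cadherin Cdh3 -1.59, Samd5 -1.54, the growth factor Ptn -1.53, the troponin gene Tnnt2 -1.49 and Igfbp3, a binding protein for insulin-like growth factors, -1.44. In Chrna6, Ptn and Igfbp3 replicate 1 gave the largest pair, with Media values of 8.62, 10.19 and 8.44 against FFA+INT-767 values of 5.65, 7.16 and 5.71. On the higher side, spermine oxidase Smox had 5.64, 5.68 and 5.44 in Media and 6.56, 7.02 and 5.87 in FFA+INT-767 (0.90, standard error 0.20), and the water channel Aqp11 had 0.87. The others were multi-copy genes whose probes cannot be assigned to 1 copy, namely the sex-chromosomal Srsy (1.05), Astx5 (1.04), Sly (0.78) and Btbd35f1 (0.81) and the autosomal Speer4d (0.85).

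FFA+INT-767 was next compared with each agent alone, to see which genes differed between the combination and its parts. Against FFA, 0 of 24824 transcripts passed the adjustment in limma. At an unadjusted p under 0.05 there were 3008, of which 1444 were higher and 1564 lower (2853 without replicate 2, 1878 without replicate 1 and 1174 with no block), and with the arrays shifted to 1 median the split was 1749 to 1198. Among genes 2.05% were higher and 5.92% lower at that threshold, or 1.78% and 4.04% without replicate 2. The genes lower than with FFA alone included those of matrix and growth factors. Grem1 differed by -1.24 from FFA (unadjusted p = 0.00118, adjusted p = 0.21) and by -1.18 without replicate 2, Ccn4 by -1.02 and -1.01, Pdgfrb by -0.86 and -0.83, Bmp4 by -0.82 and -0.82 and Nrp2 by -0.71 and -0.63. Of 31 matrix genes 9 were lower than with FFA and 1 higher at an unadjusted p under 0.05, and without replicate 2 there were 8 lower and 0 higher. PPAR targets had a median of 0.07 against FFA (0 of 35 higher, 0 lower) and -0.09 without replicate 2 (0 higher, 2 lower). Fabp4 differed from FFA by -0.41 with all replicates and by -1.37 without replicate 2. Nqo1 differed by 0.42 and 0.35.

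Against INT-767, 0 of 25041 transcripts passed in limma. At an unadjusted p under 0.05 there were 1183, of which 700 were higher and 483 lower (548 and 630 with the arrays at 1 median), and there were 1744 without replicate 2 and 536 with no block. Among genes 1.03% were higher and 0.88% lower, or 1.2% and 1.83% without replicate 2. PPAR targets had a median of 0.24 here, with 9 of 35 higher, and 0.35 with 16 higher without replicate 2. Angptl4 differed by 1.503 from INT-767 and by 2.35 without replicate 2, and Cpt1a by 0.53 and 0.81. Cholesterol genes had a median of -0.43 with 2 of 20 lower, and of -0.77 with 17 lower without replicate 2. Matrix genes had a median of -0.09, with 2 of 31 lower, and of -0.15 with 3 lower without replicate 2. Ccl2 differed from INT-767 by -1.01, and by -1.18 without replicate 2.

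The differences with each agent alone share the Media arrays with the combination, so their values can only be set side by side. For Angptl4 the difference from Media was 1.32 with FFA, 0.40 with INT-767 and 1.90 with both, and without replicate 2 it was 1.90, -0.58 and 1.76. For Hmgcs1 the values were -0.44, -0.34 and -0.78, or -0.72, -0.08 and -0.85 without replicate 2. For Grem1 they were -1.06, -1.55 and -2.30, or -1.59, -1.50 and -2.77 without replicate 2. For Ccl2 they were -1.38, -1.14 and -2.15, or -2.15, -1.72 and -2.90 without replicate 2. The list medians with FFA, INT-767 and both were 0.25, -0.00339 and 0.32 for PPAR targets, -0.41, -0.17 and -0.59 for cholesterol genes, -0.44, -0.11 and -0.52 for interferon-stimulated genes and -0.21, -0.29 and -0.41 for matrix genes. Without replicate 2 the medians with FFA, INT-767 and both were 0.40, -0.14 and 0.33 for PPAR targets, -0.70, -0.06 and -0.74 for cholesterol genes, -0.68, -0.23 and -0.71 for interferon-stimulated genes and -0.30, -0.38 and -0.54 for matrix genes. Whether the combined difference departed from the sum of the single ones was tested by an interaction term over the 12 arrays, which takes the FFA and INT-767 arrays with the same sign. It called 0 of 26076 transcripts (smallest adjusted p = 0.943), with 1280 at an unadjusted p under 0.05, 697 above the sum and 583 below it, or 544 and 798 with the arrays at 1 median. Without replicate 2 there were 1131, of which 698 were above and 433 below, and with no block there were 702.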

How the data were processed

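RNA of TSEC was hybridised to Affymetrix Mouse Gene 2.0 ST arrays, 12 in all. The deposited table holds log2 expression values that the authors made in Partek 6.6. The submitters' processing notes name RMA and the methods GC-RMA, and which was used is not known. The deposited log2 values were used without further normalization. Of 26076 transcripts, 14317 carry 1 gene symbol, 1397 several and 10362 none, and the transcript with the highest mean stood for a gene.

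Transcripts were kept if any array of the comparison exceeded 4.5, and were fitted in limma 3.58.1 (R 4.3.3) with treatment and the replicate number as a block, and p-values were adjusted over all transcripts by Benjamini-Hochberg. The block follows the biological replicate number in the titles. Deviations from the group mean of same-numbered FFA+INT-767 and Media arrays correlated at 0.197 to 0.375 (3 pairs), against -0.316 to 0.0464 for other numbers. The deviations within a group sum to 0, so negative values for other numbers follow in part from positive same-numbered ones. The fit was tested on simulated data with known changes. Tables and figures were made with pandas 2.3.3 and matplotlib 3.10.9 in Python 3.11.15.

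Named genes were the 12 largest differences in each direction at an unadjusted p under 0.05 without overlap and in the same direction in all 3 pairs, up to 4 members of each list with the smallest p, and genes fixed by name. Predicted genes, small RNAs, chemosensory receptors and pseudogenes were left out of these largest differences. That took out 41 candidates on the higher side, with 105 kept, and 33 on the lower side, with 254 kept. Some list members were named beside them after their values were seen. The comparison, the lists and the rule were chosen with earlier results of these data known. Alternatives covered the block, filter, scaling, prior, array weights, fit over 12 arrays, identical rows and each left-out replicate.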

Additional observations from a re-analysis of the deposited data

Results flagged for a closer look

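Atp5g3, a subunit of the mitochondrial ATP synthase, differed in direction between settings of INT-767. INT-767 minus Media was -0.0483 (log2), lower in all 3 replicates, and FFA+INT-767 minus FFA was 0.097, higher in all 3. The interaction term did not pass (unadjusted p = 0.241, limma adjusted p = 0.947), and without replicate 2 the differences were -0.0164 and 0.0659. Both use an array labelled replicate 2 that went against its label for fatty acid genes.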

How the results depend on the processing

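The comparison of FFA+INT-767 with Media called 0 transcripts under every alternative run. The number at an unadjusted p under 0.05 was 2230 with the replicate block, 1359 with no replicate block, 3621 in the 12-array fit and 1161 in the unmoderated test with no block, which was added after the data were seen. It was 1019 to 3031 with 1 replicate left out of the blocked fit. With no block, dropping replicates 1, 2 and 3 of Media in turn gave 1022, 1738 and 1344, and dropping replicates 1, 2 and 3 of FFA+INT-767 in turn gave 799, 1485 and 1286. The interaction called 0 to 1 transcripts when 1 array was left out, the 1 call coming from the fit with no block without Media replicate 3. With 1 replicate left out of the blocked fit, the median was 0.309 to 0.352 for PPAR targets and -0.743 to -0.497 for cholesterol genes. It was -0.706 to -0.184 for interferon-stimulated genes and -0.541 to -0.252 for matrix genes. The range widened when fits with no block and 1 array left out were added. It was then 0.254 to 0.352 for PPAR targets (0.261 without FFA+INT-767 replicate 3) and -0.928 to -0.241 for cholesterol genes. For interferon-stimulated genes it was -0.89 to -0.174 and for matrix genes -0.541 to -0.163. Of 144 named genes, 139 kept their direction in each alternative run. The others turned when 1 array was left out of the fit with no block: Apoa1 to 0.193, Dcn to 0.0302 and 0.283, Nr1h3 to -0.0264, Rgs2 to -0.185 and Xbp1 to 0.00666. The cause was not tested. With 3 arrays a group, 2 residual degrees of freedom remained, and many transcripts lay near the lowest signal.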

Other observations

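Transcripts without a single gene symbol differed from the rest in their split. At an unadjusted p under 0.05, 17.4% of transcripts with several symbols were higher in FFA+INT-767 and 2.62% lower. The shares were 1.99% and 5.23% of those with 1 symbol and 5.77% and 3.75% of those with none. The 1373 transcripts with several symbols held 1197 distinct rows, and identical rows were not merged for these shares. Families looked at after the values were seen included the multi-copy Sly, Slx, Srsy, Ssty and Astx genes of the sex chromosomes, where 77 of 90 transcripts (48 distinct rows) were higher at that threshold. Their median log2 difference was 0.647, and it was 0.919, 0.409 and 0.524 in pairs 1, 2 and 3. Of 205 vomeronasal receptor transcripts 51 were higher (24.9%), and of 341 olfactory receptor transcripts 7 were (2.05%), where 4.32% of all transcripts were. The 16 transcripts of Snord116 held 1 distinct row of values, so they count as 1 measurement, with a log2 difference of 1.28. Their probes cannot be assigned to 1 copy, and no cause was tested.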
